A study of Rattus norvegicus with 6 samples.

Results

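The genes described here are 5 that build and serve the NMDA-type glutamate receptor at excitatory synapses: Grin1, Grin2a, Grin2b, Dlg4 and Camk2a. They were chosen by Ensembl ID from 26402 gene IDs, by a rule that names no measured value but was written with earlier results of these data known. All 5 were among the 12351 IDs that averaged at least 1 FPKM and entered the test. FPKM is an abundance scaled by transcript length and library size. Polyadenylated RNA came from the superficial superior colliculus, the part of the visual midbrain where retinal axons end, of Sprague Dawley rats aged 20 days. In the closed group the eyelids were glued shut from day 14 to day 20, and in the open group the eyes were open over those days. Each group had 3 libraries, labelled batch A, batch B and batch C. How many animals a library held and what a batch shared are not stated, so p-values measure only the spread between these libraries. The identity of the tissue was not checked against cell type markers, because the table's IDs could not be paired with other gene symbols.

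The NMDA receptor is a glutamate-gated channel that passes calcium when glutamate binds while the membrane is depolarised. Most receptors join GluN1 subunits, encoded by Grin1, with GluN2 subunits, and the share of GluN2A (Grin2a) over GluN2B (Grin2b) rises at many forebrain and visual synapses as they mature. PSD-95, encoded by Dlg4, holds the receptor at the postsynaptic density, and CaMKII alpha, encoded by Camk2a, is the kinase that calcium entry through the receptor activates. In the visual system the receptor's subunit makeup and PSD-95 at synapses are known to respond to visual experience, which makes the comparison of closed with open eyes relevant to them.

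The obligatory subunit gene was far more abundant than the GluN2 genes. Averaged over the 6 libraries, Dlg4 stood at 97.5 FPKM, Grin1 at 79.6, Camk2a at 53.8, Grin2a at 6.59 and Grin2b at 2.76. Dlg4, Grin1 and Camk2a lay above 96.6%, 95.6% and 92.7% of the tested IDs, Grin2a above 40.4% and Grin2b above 16.8%. The ranges of Dlg4 (76.1 to 118.1 FPKM) and Grin1 (68.9 to 87.1 FPKM) overlapped, although Dlg4 was above Grin1 within each of the 6 libraries, with a Grin1 to Dlg4 ratio of 0.738 to 0.904. Camk2a (45.1 to 68.1 FPKM) lay below every Grin1 value, and the ranges of Grin2a (4.72 to 8.87 FPKM) and Grin2b (1.79 to 4.17 FPKM) overlapped neither each other nor those of the other 3. FPKM depends on the transcript length the authors assigned, which bears on these levels between genes. Whether that length was the same for a gene in every library is not stated.

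None of the 5 genes was called different between the eye conditions. In limma without regard to batch, 0 of the 12351 IDs (0%) had an adjusted p under 0.05, and 67 IDs (0.542%), none of them a member, had an unadjusted p under 0.05. With batch as a replicate block, 1 ID (0.0081%) passed, and it was not a member. In these bulk libraries less RNA per cell and fewer cells of a type cannot be told apart. The closed and open ranges overlapped for all 5 genes. Across all tested IDs, 2.21% had every closed library below every open library and 0.81% the reverse.

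Grin1 (ENSRNOG00000011726), the subunit present in all NMDA receptors, had almost equal group means. With closed eyes it stood at 82.0, 84.5 and 71.9 FPKM in batches A, B and C, and with open eyes at 87.1, 83.5 and 68.9 FPKM. Both batch C libraries were the lowest, and the closed library was lower in batch A only. The group means were 79.5 ± 6.67 FPKM closed and 79.8 ± 9.65 FPKM open (SD, n = 3 each). The log2 fold of closed over open was -0.0028 (SE 0.15) with limma's adjusted p = 1. Its 95% interval reached from a 0.784-fold to a 1.27-fold level, and with the replicate block from 0.907-fold to 1.10-fold. The sign of so small a fold turned with single libraries, to 0.067 without closed C, and it was -0.10 without open C. Fits with a single library left out had no batch term, here and for the other genes. The batches were then unequal between the groups, so batch differences enter those folds.

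Grin2a (ENSRNOG00000033942), the subunit gene linked to mature receptors, was lower with closed eyes in batches A and B and slightly higher in batch C. It stood at 4.72, 4.75 and 8.87 FPKM with closed eyes and at 6.75, 5.94 and 8.52 FPKM with open eyes in batches A, B and C. The lowest values were those of the closed libraries of A and B, and both batch C libraries were above the other 4. Closed differed from open by -30.1% in batch A, -20.1% in batch B and 4.01% in batch C. The group means were 6.11 ± 2.39 and 7.07 ± 1.32 FPKM (SD, n = 3 each). The log2 fold in limma was -0.24 (SE 0.245, adjusted p = 1). With the replicate block the SE was 0.10 and the adjusted p was 0.781 (unadjusted p = 0.0479), and the 95% interval ran from 0.720-fold to 0.998-fold. The fold was -0.52 without the closed library of batch C and -0.38 without both libraries of that batch. It came to -0.10 when closed A, closed B or open C was left out, and -0.12 without both libraries of batch A.

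Grin2b (ENSRNOG00000008766), whose product gives the slower currents of young synapses, had the lowest level of the 5 and was lower with closed eyes in each batch. It stood at 1.79, 1.82 and 4.02 FPKM with closed eyes and at 2.25, 2.49 and 4.17 FPKM with open eyes. As for Grin2a, both batch C libraries were above the other 4. Closed differed from open by -20.4%, -26.7% and -3.60% in A, B and C respectively. The group means were 2.54 ± 1.28 and 2.97 ± 1.05 FPKM (SD, n = 3 each), and limma gave a log2 fold of -0.22 (SE 0.30, adjusted p = 1). With the replicate block the SE was 0.099, the adjusted p 0.781 and the 95% interval 0.732-fold to 1.001-fold. The fold was 0.011 without the open library of batch C, -0.55 without the closed library of batch C, -0.057 without closed A and -0.068 without closed B. It was -0.37 without open A. These fits had no batch term, so leaving out a single library put batch differences into the fold. With both libraries of batch A, B or C left out, which keeps the batches equal between the groups, the fold was -0.205, -0.16 and -0.31.

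Dlg4 (ENSRNOG00000018526), the scaffold gene, had differences of opposite sign in different batches. Its closed libraries stood at 108.7, 94.7 and 84.9 FPKM and its open libraries at 118.1, 102.6 and 76.1 FPKM in batches A, B and C. Closed was lower by similar amounts in batches A and B (-7.91% and -7.69%) and higher in batch C (11.5%). The group means were 96.1 ± 11.98 and 98.9 ± 21.2 FPKM (SD, n = 3 each), with a limma log2 fold of -0.026 (SE 0.20, adjusted p = 1). The 95% interval was 0.719-fold to 1.34-fold, and 0.876-fold to 1.10-fold with the replicate block. The fold was 0.11 without open A and -0.20 without open C. With both libraries of batch A, B or C left out, the Dlg4 fold was 0.020, 0.019 and -0.117.

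Camk2a (ENSRNOG00000018712), the kinase gene, was lower with closed eyes in each batch, with closed differing from open by -17.2%, -16.5% and -1.12% in batches A, B and C. Its FPKM was 56.4, 48.9 and 45.1 with closed eyes and 68.1, 58.6 and 45.7 with open eyes. The closed libraries of A and B lay below their partners but above both batch C libraries, so the groups overlapped. The group means were 50.2 ± 5.74 and 57.5 ± 11.3 FPKM (SD, n = 3 each), and limma gave a log2 fold of -0.18 (SE 0.18, adjusted p = 1). With the replicate block the SE was 0.069, the adjusted p 0.781 (unadjusted p = 0.0296) and the 95% interval 0.790-fold to 0.984-fold. The fold was -0.05 without open A, -0.11 without closed C and -0.34 without open C. With both libraries of batch A, B or C left out, which keeps the batches equal between the groups, the Camk2a fold was -0.137, -0.143 and -0.264.

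**Figure D1:**
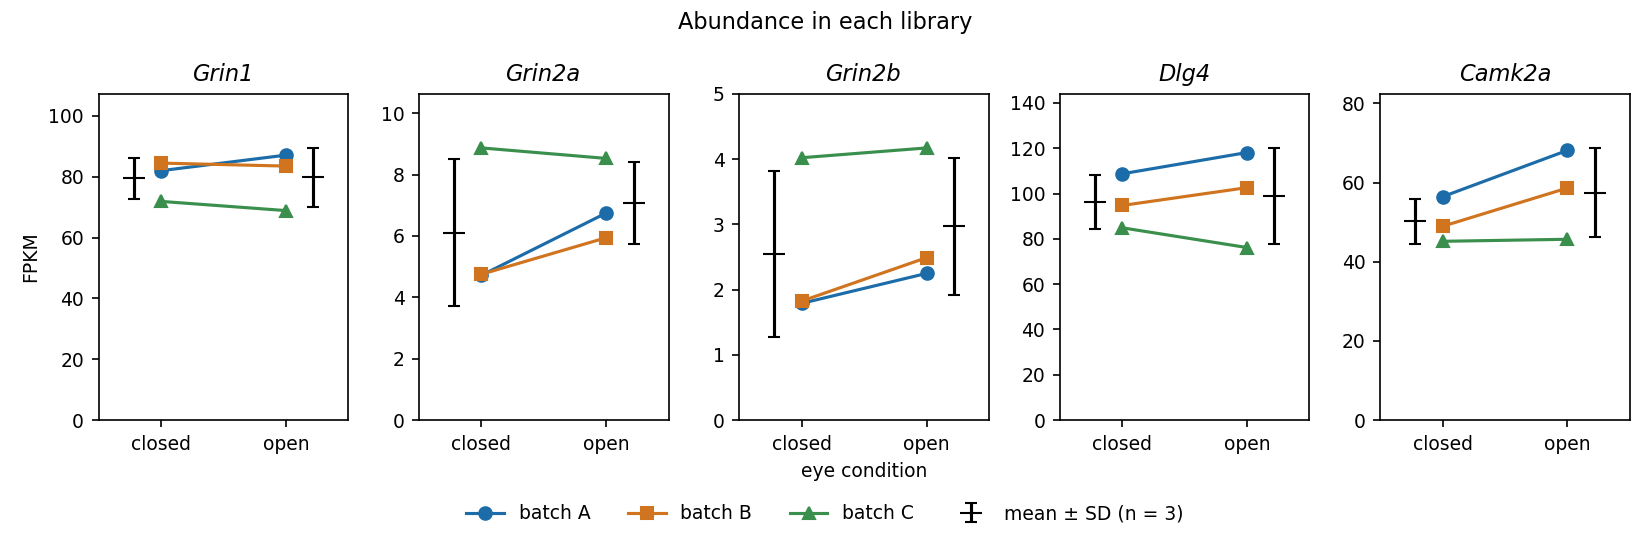
FPKM of each gene (y axis, from 0, one scale per panel) in closed and open libraries; lines join the libraries of one batch and black bars are group means ± SD (n = 3). Batch C lies highest for Grin2a and Grin2b and lowest for Grin1, Dlg4 and Camk2a, and the mean ± SD bars of the groups overlap in every panel.

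As a set, the 5 genes had lower mean values with closed eyes, but the sign of 2 of the 5 depended on the scaling. With FPKM as deposited, 5 of 5 had a negative mean difference, against 65.3% of all tested IDs, and the median log2 fold was -0.18 against -0.03 for all IDs. Grin1 (-0.0028) and Dlg4 (-0.026) were less negative than that median of all IDs (-0.034), so only Grin2a, Grin2b and Camk2a lay below it. With the library medians made equal, 3 of 5 were lower against 51.0% of all IDs, with a median of -0.15 against -0.0022. Grin2a, Grin2b and Camk2a stayed lower under quantile, median and upper-quartile scaling, Grin1 turned positive under all 3, and Dlg4 turned positive under median and upper-quartile scaling. With the replicate block, Grin2a and Camk2a had an unadjusted p under 0.05, as did 780 of all tested IDs (6.32%). After median scaling with the block the unadjusted p was 0.0632 for Grin2a and 0.0369 for Camk2a, with adjusted p of 0.777 and 0.773 in limma.

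**Figure D2:**
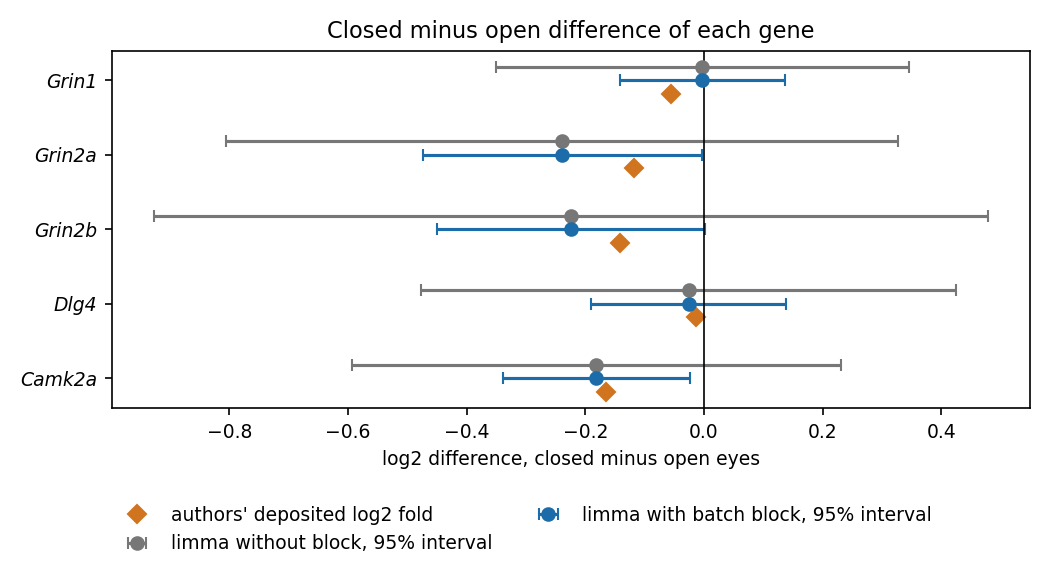
Log2 difference of closed minus open eyes for each gene (x axis), with 95% intervals from limma without (grey) and with (blue) the batch block; diamonds are the authors' deposited log2 folds, which have no interval. All 5 intervals without the block cross 0, and with it those of Grin2a and Camk2a end just below 0 before adjustment for the number of IDs.

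For Grin2a, Grin2b, Dlg4 and Camk2a the differences within batches A and B were closer to each other than to that in batch C, while for Grin1 batch B was closer to batch C. In batch A all 5 genes were lower with closed eyes, against 66.6% of tested IDs, in batch B 4 of 5 against 64.7%, and in batch C 2 of 5 against 44.0%. After median scaling the members' counts were again 5, 4 and 2, and the shares of all IDs 49.9% (A), 48.8% (B) and 51.8% (C). Grin2b and Camk2a were lower in all 3 batches, as were 19.5% of tested IDs as deposited and 14.1% after median scaling. Of the tested IDs, 1.61% had a more negative difference than Grin2a in batch A, and 6.71% had one in batch B. For Grin2b those shares were 9.21% and 3.89%, and for Camk2a 8.62% and 9.59%. In batch C the same shares were 61.8% for Grin2a, 31.0% for Grin2b and 39.3% for Camk2a. Grin1 and Dlg4 were nearer the middle in batches A and B. The shares in batches A, B and C were 43.15%, 68.92% and 64.12% for Grin1 and 34.58%, 33.95% and 85.16% for Dlg4. Whether the eye difference varied between batches was not tested, since each batch has 1 library per condition.

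**Figure D3:**
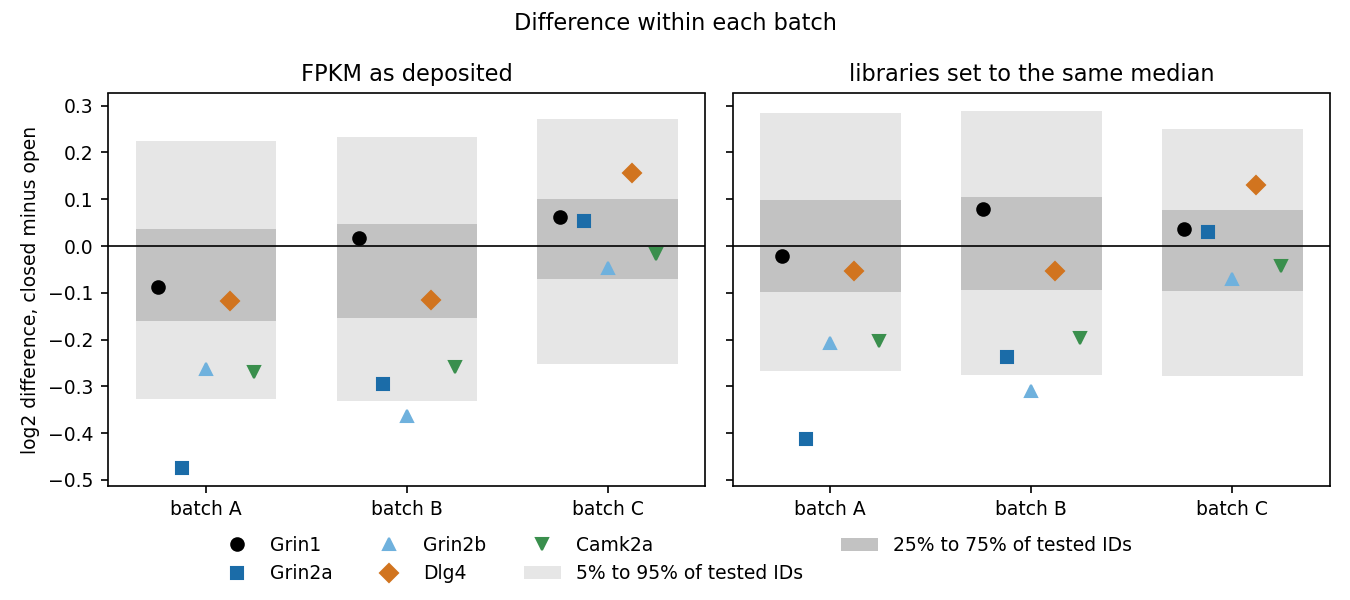
Log2 difference of closed minus open within each batch (y axis) for the 5 genes, over the range of all tested IDs (grey: 5% to 95% and 25% to 75%), as deposited and with libraries set to the same median. Grin2a in batch A (-0.47 as deposited) and Grin2b in batch B (-0.36) lie under the 5% limit, and all 5 lie inside the 5% to 95% range in batch C.

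For all 5 genes the averages of the 3 batches spread more widely than those of the 2 eye conditions. How many of all tested IDs had this order was not computed. A range over 3 averages of 2 libraries also tends to exceed a difference between 2 averages of 3. Batch C was the highest for the GluN2 genes and the lowest for the other 3. Batch C was singled out after its values were seen. Between the highest and lowest batch the log2 range was 0.26 for Grin1, 0.66 for Grin2a, 0.87 for Grin2b, 0.49 for Dlg4 and 0.45 for Camk2a. Averaged over both conditions, Grin2a was 5.73, 5.35 and 8.70 FPKM in batches A, B and C, and Grin2b was 2.02, 2.16 and 4.10 FPKM. On the log2 scale batch C was above the mean of A and B by 0.62 for Grin2a and 0.84 for Grin2b, a position that 99.0% and 99.5% of tested IDs did not reach. Grin1, Dlg4 and Camk2a were lower in batch C, by -0.26, -0.39 and -0.34, where the median of all IDs was -0.21. Both batch C libraries were above the other 4 for 7.17% of tested IDs and below them for 51.7%, so the order of Grin1, Dlg4 and Camk2a was a common one and that of Grin2a and Grin2b was not.

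In the limma F test between batches, all 5 genes passed, as did 49.7% of tested IDs, with adjusted p of 0.00690 for Grin2a, 0.00208 for Grin2b, 0.0279 for Grin1, 0.00723 for Dlg4 and 0.00941 for Camk2a. After median scaling 2 of the 5 passed, the GluN2 genes (0.00822 for Grin2a and 0.00495 for Grin2b), as did 29.6% of tested IDs, and Grin1, Dlg4 and Camk2a were at 0.688, 0.0526 and 0.0639. The median FPKM of tested IDs was 8.03 and 7.88 in the batch C libraries and 8.96 to 9.39 in the other 4, so a lower FPKM scale of the whole library went with the lower values of Grin1, Dlg4 and Camk2a there. Its part in them was not tested beyond that scaling. Without batch C no member passed (adjusted p of 0.110 to 0.939), and 0.13% of tested IDs did. Without batch A 4 of the 5 passed, all but Camk2a (0.0743), against 37.5% of tested IDs.

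The Grin2a to Grin2b ratio, which does not depend on library scaling, was almost equal in the 2 eye conditions. It was 2.64, 2.60 and 2.21 with closed eyes and 3.001, 2.39 and 2.04 with open eyes in batches A, B and C. Closed was below open in batch A and above it in batches B and C. The means were 2.48 ± 0.240 closed and 2.48 ± 0.485 open (SD, n = 3 each), a log2 difference of 0.016 (exact two-sided permutation p = 1, paired exact p = 1). Leaving out single libraries or batches moved that difference between -0.11 (without open C) and 0.16 (without open A). Averaged over both conditions the ratio was 2.81 in batch A, 2.49 in batch B and 2.12 in batch C, and each condition had this order.

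GluN2 abundance relative to Grin1 was lower with closed eyes in each batch, by unequal amounts. The sum of Grin2a and Grin2b over Grin1 was 0.0794, 0.0778 and 0.179 with closed eyes and 0.103, 0.101 and 0.184 with open eyes. In batches A and B the log2 differences were -0.38 and -0.38, and in batch C -0.04. The mean log2 difference of -0.27 had an exact two-sided permutation p of 0.5 and a paired exact p of 0.25, the smallest that 3 pairs allow. Adjusted over the 11 ratios, the permutation p was 0.88 and the paired exact p 0.344. How many other tested IDs were lower relative to Grin1 in each batch was not computed. Dropping the open library of batch C gave 0.019, dropping closed A or closed B gave -0.074 or -0.06, and dropping closed C gave -0.66. Dropping a single library left the batches unequal between the groups. With both libraries of batch A, B or C dropped, the difference was -0.208, -0.210 and -0.378. Grin2c, Grin2d and the Grin3 genes, which encode the remaining NMDA receptor subunits, were not analysed here, so the sum covers only part of the GluN2 family.

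Dlg4 relative to Camk2a was the 1 ratio of 11 whose closed and open values did not overlap. It was 1.93, 1.94 and 1.88 with closed eyes and 1.73, 1.75 and 1.67 with open eyes in batches A, B and C. Each closed library was above all 3 open ones, and the differences within the batches were alike, at 0.15, 0.14 and 0.17 on the log2 scale. The means were 1.91 ± 0.0299 and 1.72 ± 0.0437 (SD, n = 3 each). The mean log2 difference of 0.16 had an exact two-sided permutation p of 0.1, the smallest that 3 libraries against 3 allow, and a paired exact p of 0.25; adjusted over the 11 ratios these were 0.88 and 0.344. Among the other 12350 tested IDs set over Camk2a in the same way, which include Dlg4, 9.14% had every closed library above every open one, and 49.0% were above in all 3 batches. A ratio shows unequal change and not which gene changed.

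The other ratios overlapped between the groups. Grin1 to Camk2a was 1.45, 1.73 and 1.59 with closed eyes and 1.28, 1.43 and 1.51 with open eyes, higher with closed eyes in all 3 batches (mean log2 difference 0.18, exact two-sided permutation p = 0.2, adjusted p = 0.88). Of the other tested IDs set over Camk2a, 49.0% were likewise higher in all 3 batches. Such a share was not computed for the remaining ratios given here. Grin1 to Grin2a differed by 0.26 and Grin1 to Grin2b by 0.27 on the log2 scale, both higher with closed eyes in 3 of 3 batches (exact two-sided permutation p = 0.5 for each, adjusted p = 0.88). Grin2a to Dlg4 (-0.23), Grin2b to Dlg4 (-0.25) and Grin2b to Camk2a (-0.094) were lower with closed eyes in all 3 batches. Grin1 to Dlg4 differed by 0.023, higher in 2 batches, and Grin2a to Camk2a by -0.078, higher in 1. For these the exact two-sided permutation p was 0.5 to 0.8 (adjusted p = 0.88). Paired by batch, each ratio of this paragraph with 1 direction in all 3 batches had a paired exact p of 0.25 (adjusted p = 0.344). That is the smallest p that 3 pairs allow. The paired exact p was 0.75 for Grin1 to Dlg4 and for Grin2a to Camk2a (adjusted p = 0.825). Grin1 to Grin2b turned to -0.10 without open C and ranged up to 0.73 without closed C, with 0.050 without closed A and 0.042 without closed B. Grin1 to Grin2a came to 0.012 without open C, 0.064 without closed B, 0.080 without closed A and 0.17 without batch A, and to 0.63 without closed C and 0.41 without open B. Grin1 to Camk2a was 0.11 without open A and 0.12 without closed B. With a single library left out, the batches were unequal between the groups in these ratios too. With both libraries of batch A, B or C left out, Grin1 to Grin2b was 0.29, 0.18 and 0.35. In that order Grin1 to Grin2a was 0.17, 0.22 and 0.38, and Grin1 to Camk2a was 0.18, 0.13 and 0.23.

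**Figure D4:**
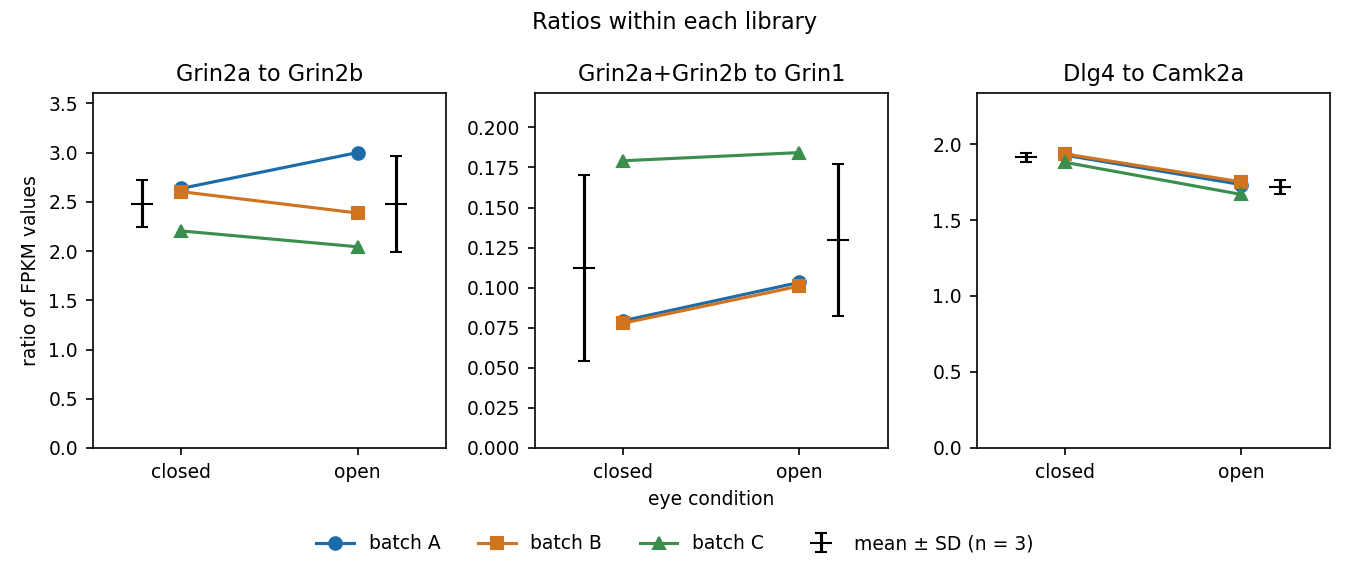
Ratios of FPKM within each library (y axis, from 0) for Grin2a to Grin2b, the sum of Grin2a and Grin2b to Grin1, and Dlg4 to Camk2a; lines join the libraries of one batch and black bars are means ± SD (n = 3). The Dlg4 to Camk2a values of the closed libraries (1.88 to 1.94) lie above those of the open libraries (1.67 to 1.75), while in the other 2 panels the closed and open values overlap and batch C stands at one end.

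The authors' deposited table gave all 5 genes a lower level with closed eyes, against 49.1% of the 12344 IDs that it shares with those tested here, and called none of them. Its log2 folds, turned here to closed over open, were -0.06 for Grin1, -0.12 for Grin2a, -0.14 for Grin2b, -0.013 for Dlg4 and -0.16 for Camk2a. Of the 20347 IDs with a p-value there, 7 (0.0344%) were under 0.05 after adjustment in the authors' deposited table. Camk2a had the smallest p of the 5 in the authors' deposited table (unadjusted p = 0.0234, adjusted p = 0.9999), where 489 IDs (2.40%) were under 0.05 unadjusted. The other 4 genes had unadjusted p of 0.0997 (Grin2b), 0.150 (Grin2a), 0.404 (Grin1) and 0.849 (Dlg4) in the authors' deposited table. The FPKM and the deposited comparison share their libraries, and the sign of the deposited folds was itself read from FPKM, so this is no second measurement.

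The mean normalized counts in the authors' deposited table give the depth behind each gene, if that column is read as its scale implies. They were 14233 for Grin1, 11931 for Dlg4, 3647 for Camk2a, 889 for Grin2a and 470.9 for Grin2b. Counting error alone at those counts, the inverse square root, is 0.838%, 0.916%, 1.66%, 3.35% and 4.61% of the level in one library. Over the 6 libraries of both eye conditions, the highest FPKM over the lowest was 1.26 for Grin1, 1.55 for Dlg4, 1.51 for Camk2a, 1.88 for Grin2a and 2.33 for Grin2b.

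By profile over the 6 libraries Grin2a and Grin2b stood apart from the other 3 genes. Likeness was measured as the root mean square difference of log2(FPKM + 0.5) values after each gene was centred on its own mean. Grin2a and Grin2b were closest to each other among the members, at 0.139, and 0.211% and 0.162% of the other tested IDs were nearer to Grin2a and to Grin2b than that. Dlg4 and Camk2a were 0.0817 apart, with 6.88% of IDs nearer to Dlg4 and 3.37% nearer to Camk2a. Grin1 was nearest to Dlg4 at 0.111, and 34.0% of IDs were nearer to it. Grin2b and Dlg4 were farthest apart, at 0.599. The closest ID outside the set was ENSRNOG00000011585 for Grin2a, at 0.0721 with a mean of 5.75 FPKM, and ENSRNOG00000000277 for Grin2b, at 0.0545 with a mean of 3.03 FPKM; neither could be paired with a symbol. For Grin1, Dlg4 and Camk2a the closest ID lay at 0.00995, 0.0175 and 0.0142. These distances describe 6 libraries that share batches. They are not scaled by a gene's own spread, which was 0.336 for Grin2a and 0.4168 for Grin2b. That spread was 0.1256 for Grin1, 0.2125 for Dlg4 and 0.2114 for Camk2a. The distances include the higher batch C values of Grin2a and Grin2b, so they are no observation separate from those values.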

How the data were processed

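Polyadenylated RNA of 6 libraries was compared, 3 per eye condition. The submitters' processing notes name the build rn5, DESeq2 1.4.1, Cufflinks 2.1.1, featureCounts 1.4.4 and STAR 2.3.14z. The role of each tool, and the annotation, were not given in the sources used here. Per the labels, the authors deposited FPKM (fragments per kilobase of transcript and library size) for 26402 Ensembl gene IDs. FPKM keeps no depth. Low values (means under 0.05 FPKM) were searched for steps of 1 read. In the 15 pairs of libraries, at most 1.07% to 3.65% of such IDs shared a ratio within 0.5%, so reads were not recovered and FPKM gets no counting interval.

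The authors also deposited their own DESeq2 comparison, per the file headers: a signal value that looks like a mean normalized count by its scale, with log2 folds and p-values. The deposited log2 fold had the opposite sign to the closed-minus-open FPKM difference in 74.6% of 12344 IDs, so it was read as open over closed and is quoted here as closed over open. Shrinkage of those folds and the terms of that model were not given in the sources used here.

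Gene symbols of the 5 members came with the rule that selected them. The gene IDs of other genes could not be paired with symbols, because the reference table's 47357 rows hold 0 Ensembl IDs. The planned list of 23 other excitatory synapse genes and the 26 cell type markers were therefore not analysed here. Members and lists were chosen with earlier results of these data known. The other IDs to be named were, for each member, the ID with the closest profile over the 6 libraries; without symbols only the ones for Grin2a and Grin2b are printed.

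All IDs averaging at least 1 FPKM were fitted with limma 3.58.1 in R 4.3.3 on log2(FPKM + 0.5), with trend and robust moderation. P-values are two-sided and were adjusted over all of those IDs by Benjamini-Hochberg, with a threshold of 0.05. Folds on this scale understate changes of low genes. Intervals are 95% intervals per gene, not adjusted for the number of genes. Both groups carry the same batch letters in the labels, which pair the libraries. Deviations from the group means correlated across IDs between the paired libraries at 0.361 in batch A, 0.441 in batch B and 0.525 in batch C, and a paired fit with a replicate block was the alternative. Ratios were taken from FPKM without a pseudocount and compared with exact permutation tests, adjusted over 11 ratios. Scripts were tested on simulated data. Alternatives were other pseudocounts, filters, scalings and plain moderation, and leaving out each library or batch. With a single library left out, the fits had no batch term and the ratios were not paired.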

Additional observations from a re-analysis of the deposited data

How the results depend on the processing

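No member was called between eye conditions in any setting tried, and the members' adjusted p in limma ranged from 0.371 to 1 over all of them; the filter at 5 FPKM left Grin2b untested. The number of IDs called was 0 under the other pseudocounts, filters, scalings and plain moderation, 1 with the replicate block (0 with it and median scaling), and 0 to 16 when libraries or batches were left out. Grin2a and Camk2a kept their direction in all 22 settings, with folds of -0.52 to -0.10 and -0.34 to -0.05. Grin1 turned to 0.0098 with quantile scaling, 0.031 with median scaling (with or without the replicate block) and 0.024 with upper-quartile scaling, and ranged from -0.10 to 0.067 when libraries were left out. Dlg4 turned to 0.0081 with median scaling (with or without the block) and 0.00064 with upper-quartile scaling, and ranged from -0.20 to 0.11. Grin2b ranged from -0.55 to 0.011. Batch differences of Grin1, Dlg4 and Camk2a were no longer called after median scaling (adjusted p of 0.688, 0.0526 and 0.0639). With a batch left out, the adjusted p reached 0.0407 to 0.939 for Grin1, 0.00591 to 0.584 for Grin2a, 0.0015 to 0.701 for Grin2b, 0.00506 to 0.121 for Dlg4 and 0.00691 to 0.11 for Camk2a; fewer libraries were fitted there. The Grin2a to Grin2b log2 difference was -0.014 with a pseudocount of 0.5 and -0.11 to 0.16 with libraries left out. Those ranges were 0.012 to 0.63 for Grin1 to Grin2a, 0.11 to 0.24 for Grin1 to Camk2a, -0.10 to 0.73 for Grin1 to Grin2b, -0.049 to 0.098 for Grin1 to Dlg4, -0.62 to 0.085 for Grin2a to Dlg4, -0.45 to 0.22 for Grin2a to Camk2a, -0.72 to 0.20 for Grin2b to Dlg4, -0.55 to 0.34 for Grin2b to Camk2a and -0.66 to 0.019 for the GluN2 sum to Grin1. Dlg4 to Camk2a stayed between 0.14 and 0.17. With a single library left out, no batch term or pairing was used, so batch differences entered the closed minus open difference. Their part in these shifts, and any other cause, was not tested. Depth per library is unknown.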
